A study of Homo sapiens with 4 samples.

Results

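Integrins are the cell surface receptors for the extracellular matrix, and laminins are major matrix proteins of the basement membrane to which several of them bind. The genes described here are the 33 of 20812 listed genes whose symbols match ITGA with a number, V or M, ITGB with a number from 1 to 8, or LAMA, LAMB or LAMC with a number from 1 to 5. They comprise 13 integrin alpha chains, 8 integrin beta chains, 5 laminin alpha chains, 4 laminin beta chains and 3 laminin gamma chains. Of these 33, 16 reached at least 10 CPM, reads scaled to a common library size, in a library, 5 had their highest level between 1 and 10 CPM, 10 stayed under 1 CPM in every library, and ITGB2 and LAMB4 had 0 reads throughout. The measurements came from HCT116, a human colon cancer cell line, by amplicon sequencing with 1 short target per gene. The 4 groups were wild type cells treated with DMF, the solvent, wild type cells treated with 1 mM indole, a bacterial product of tryptophan, and a line overexpressing human IDO1, a tryptophan-degrading enzyme, under each of the same treatments. Treatment lasted 24 h in all groups. The promoter that drives IDO1 is not given in the sources used here, nor is whether the line is 1 clone.

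An integrin is a pair of 1 alpha and 1 beta chain, and the pair sets the ligand. ITGB1 pairs with most alpha chains, among them the collagen receptors of ITGA1, ITGA2, ITGA10 and ITGA11 and the laminin receptors of ITGA3, ITGA6 and ITGA7, while ITGB4 pairs with ITGA6 in hemidesmosomes, the junctions that anchor epithelial keratin to the basement membrane. A laminin is a trimer of 1 alpha, 1 beta and 1 gamma chain. LAMA3 and LAMB3 are chains of the main laminin of epithelial anchorage, and LAMA5 joins LAMB1 or LAMB2 and LAMC1 in the laminins of mature epithelial basement membranes, including that of the gut.

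Each group had 1 library, with totals from 18283862 to 22736172 reads, so a pair of groups could be described but not tested. Folds are ratios of CPM scaled by the trimmed mean of M-values (TMM). Each has a 95% interval of counting error only, except where a library had 0 reads. The IDO1 target had 0 and 2 reads in wild type cells against 3451 and 2440 in the overexpressing line, in the direction of the labels. The wild type library with indole stood apart from the other 3. Its Pearson correlations with them across genes, which are not independent replicates, were 0.946 to 0.963, against 0.984 to 0.993 among the other 3. Of 10 colon epithelium markers, EPCAM, KRT8, KRT18, KRT19, CDH1 and CDX2 had 809 to 40622 reads in every library, VIL1 and LGALS4 had 0 to 13, and CEACAM5 and CDX1 had 0. Of 10 leukocyte markers 6 had reads, summing to 8.11 to 9.95 CPM, with CD68 at 118 to 186 reads and PTPRC, CD3E and MS4A1 at 0 in all libraries. Of 8 fibroblast markers 5 had reads, summing to 75.03 to 98.64 CPM, of which COL1A1 gave 1412 to 1879 reads, with COL1A2, DCN and THY1 at 0. Of 6 endothelial markers 4 had reads, summing to 3.76 to 4.86 CPM, with PECAM1 at 72 to 104 reads and CDH5 and ERG at 0.

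Promoter sequences are shown for ITGA2 and LAMB1, the members with the largest differences between wild type libraries among those at 10 CPM, and for LAMA3, a partner of LAMB3. Each gives the 250 bases before the RefSeq start on GRCh38.p14, in the direction of the gene, at chr5:52989102-52989351 (plus strand) for ITGA2, chr7:108003162-108003411 (minus strand) for LAMB1 and chr18:23872770-23873019 (plus strand) for LAMA3. Capitals mark matches on either strand to GCGTG, the core letters bound by the aryl hydrocarbon receptor, a receptor of indoles, and to TGANTCA, the letters bound by AP-1 factors. The marked matches do not overlap.
ITGA2: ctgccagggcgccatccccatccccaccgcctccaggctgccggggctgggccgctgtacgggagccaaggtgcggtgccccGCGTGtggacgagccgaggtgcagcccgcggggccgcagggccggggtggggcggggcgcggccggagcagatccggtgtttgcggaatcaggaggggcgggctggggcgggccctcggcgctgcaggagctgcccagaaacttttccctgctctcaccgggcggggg
LAMB1: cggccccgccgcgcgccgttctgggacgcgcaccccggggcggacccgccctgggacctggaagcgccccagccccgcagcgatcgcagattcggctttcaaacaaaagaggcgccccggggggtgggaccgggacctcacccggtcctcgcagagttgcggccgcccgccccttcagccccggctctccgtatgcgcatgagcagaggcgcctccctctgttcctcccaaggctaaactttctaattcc
LAMA3: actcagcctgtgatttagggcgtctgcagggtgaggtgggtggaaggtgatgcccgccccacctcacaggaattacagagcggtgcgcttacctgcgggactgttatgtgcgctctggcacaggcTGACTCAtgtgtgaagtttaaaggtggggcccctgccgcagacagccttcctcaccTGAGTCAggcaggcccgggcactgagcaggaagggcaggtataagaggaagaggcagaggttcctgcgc
The ITGA2 stretch held 1 GCGTG, the LAMB1 stretch neither motif, and the LAMA3 stretch 2 copies of TGANTCA, the first beginning 125 bases before the start. The GC box GGGCGG, not marked, occurred 4 times in each of the ITGA2 and LAMB1 stretches and 1 time in that of LAMA3. Over 24 member genes with an entry, 7 held GCGTG, 2 held TGANTCA and 14 held GGGCGG in at least 1 listed promoter. The shares of all 35116 listed promoters were 32.2%, 6.57% and 42.6%. They count promoters, while the members are counted as genes, some with several listed promoters, so the values are not directly comparable. A match is a description of letters and not of binding.

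In wild type cells, integrin and laminin transcripts were higher with indole than with DMF. All 16 members at 10 CPM in either library had a ratio above 1, where 46.2% of all 8679 genes at that level did. Their median log2 ratio of CPM plus 1 was 0.43, and that of all genes was -0.04. ITGA2 was called at least 2-fold higher, against 1.36% of all genes, a call lost with median-of-ratios size factors (log2 ratio 0.998) and with a pseudocount of 5 (0.956), and 3 members, ITGA2 and LAMB1 among them, were at least 1.5-fold higher, against 7.09%. Of the 16 members at 10 CPM in any library, 15 had their highest level of the 4 libraries in wild type with indole, as did 35.2% of all such genes. ITGB5 and LAMC3 reached 10 CPM only in that library, so the filter itself set their direction in these counts. Among the 14 members at 10 CPM in another library, a filter chosen after seeing the data, 14 were above 1 and 13 had their highest level in wild type with indole, against 44.6% and 33.4% of 8610 genes. These values rest on that 1 library, and its difference from the others was not tested. Scaling by library totals shifted the all-gene median to 0.14 and the members' median to 0.61.

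**Figure D1:**
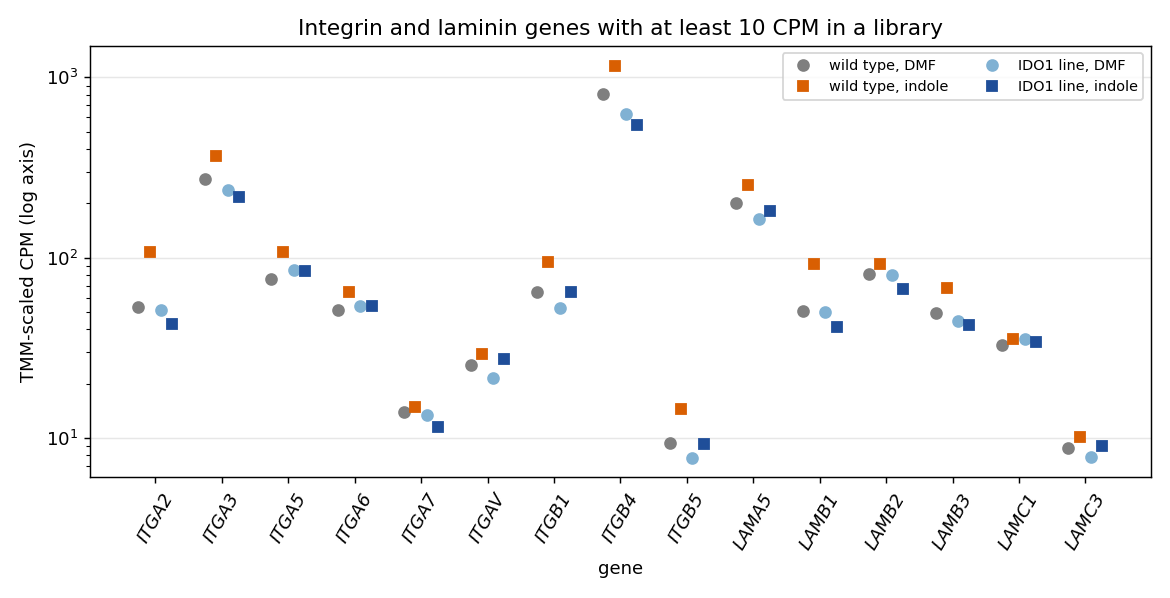
TMM-scaled CPM (vertical axis, log scale) of 15 integrin and laminin genes with at least 10 CPM in a library, 1 point for each of the 4 libraries. Orange squares, wild type with indole, are the highest of the 4 points for every gene shown but LAMC1. Heights of different genes also reflect their amplicons and are not to be compared.

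Among the collagen receptor chains, ITGA2, the platelet and epithelial collagen receptor chain, stood at 53.0 CPM in wild type with DMF and 107 with indole, and at 51.1 CPM (DMF) and 42.9 CPM (indole) in the IDO1 line. The wild type library with indole was above each of the other 3, which lay close together. The fold was 2.03 (1.89 to 2.18) for indole in wild type and 0.840 (0.767 to 0.919) in the IDO1 line. The other collagen-binding chains were low. ITGA1 had 21 to 52 reads and ITGA10 31 to 60 reads across libraries, and ITGA11 had 0 to 9.

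Among the laminin receptor chains, ITGB4 stood at 806 CPM in wild type with DMF and 1163 with indole, and at 628 and 543 CPM in the IDO1 line. It was 1.44-fold higher with indole in wild type (1.41 to 1.47) and 1.16-fold lower in the IDO1 line (1.13 to 1.19). Its partner ITGA6 was at 51.2, 64.1, 54.2 and 54.0 CPM in the same order. It was 1.25-fold higher with indole in wild type (1.15 to 1.36). This interval does not overlap that of ITGB4, but both cover counting error only, and the difference was not tested. ITGA3, which pairs with ITGB1 to bind epithelial laminins, was at 272 and 365 CPM in wild type and 237 and 218 CPM in the IDO1 line. It was 1.34-fold higher with indole in wild type (1.30 to 1.39) and 1.09-fold lower in the IDO1 line (1.04 to 1.13). ITGA7, a chain known from muscle, lay between 11.5 and 14.8 CPM, and its counting intervals for indole included 1 in both lines.

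ITGB1, the shared beta chain, was at 64.3 and 94.0 CPM in wild type and 52.4 and 64.8 CPM in the IDO1 line. It was higher with indole in both lines, 1.46-fold in wild type (1.36 to 1.57) and 1.24-fold in the IDO1 line (1.14 to 1.34). ITGA2 and ITGB1, which form 1 receptor, differed in wild type by folds whose intervals do not overlap. These intervals cover counting error only, and a difference between the 2 chains was not tested. ITGAV, the alpha chain of several receptors for the RGD motif, was also higher with indole in both lines, 1.15-fold (1.02 to 1.29) and 1.27-fold (1.12 to 1.44). Of its beta partners, ITGB5 was 1.53-fold higher in wild type (1.27 to 1.85) and 1.20-fold in the IDO1 line (0.968 to 1.48). ITGB8 went from 43 to 96 reads in wild type, 2.45-fold (1.70 to 3.60), and from 71 to 58 in the IDO1 line. ITGB6 had 2 to 8 reads and ITGB3 0 to 5. ITGA5, the fibronectin receptor chain, was 1.40-fold higher in wild type (1.312 to 1.496) and had a ratio of 0.982 in the IDO1 line (0.918 to 1.05). ITGB5, ITGB8 and ITGA5 were chosen after their values were seen.

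Among the chains of the epithelial anchorage laminin, LAMB3 was at 49.6, 67.7, 44.6 and 42.1 CPM in the order used above, 1.37-fold higher in wild type (1.26 to 1.48) and 0.944 in the IDO1 line (0.859 to 1.04). The wild type library with indole was the highest of the 4. For LAMA3 the counts were 15 reads (wild type, DMF), 53 (wild type, indole), 76 (IDO1 line, DMF) and 60 (IDO1 line, indole). Unlike LAMB3, it was set apart by a low value in wild type with DMF, against which it was 3.88-fold higher with indole (2.16 to 7.42). It did not reach 10 CPM in any library, so it is not among the 16 genes counted.

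Among the chains of the gut-type laminins, LAMB1 was at 50.3 and 92.6 CPM in wild type and 49.7 and 41.2 CPM in the IDO1 line. It was 1.84-fold higher with indole in wild type (1.71 to 1.99) and 1.20-fold lower in the IDO1 line (1.10 to 1.32). LAMB2, the alternative beta chain, was 1.14-fold higher (1.07 to 1.22) and 1.19-fold lower (1.11 to 1.28). LAMA5 was at 200, 254, 164 and 181 CPM and was higher with indole in both lines, 1.27-fold (1.22 to 1.32) and 1.11-fold (1.05 to 1.16). LAMC1, the gamma chain they share, stayed between 32.7 and 35.3 CPM, and all its intervals included 1. The chains of this trimer were thus apart by different amounts in these libraries, which was not tested. LAMC3, another gamma chain, was at 7.80 to 10.2 CPM.

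**Figure D2:**
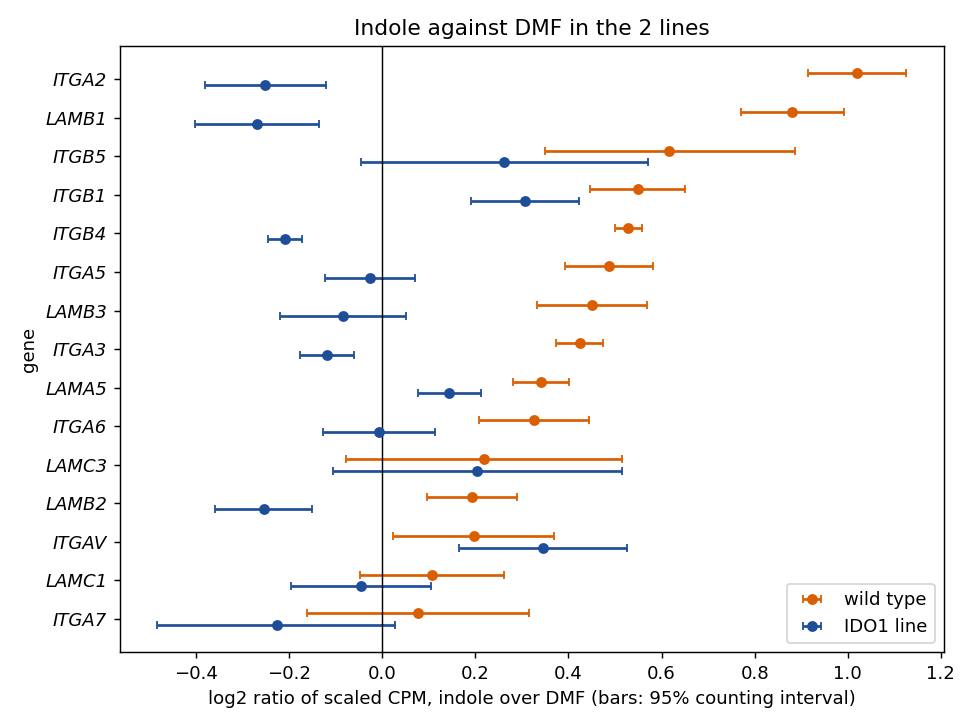
Log2 ratio of scaled CPM, indole over DMF (horizontal axis), for the same 15 genes in wild type (orange) and in the IDO1 line (blue). Bars are 95% counting intervals. ITGA2 and LAMB1 lie farthest apart between the lines, and ITGB1, ITGAV and LAMA5 have intervals wholly above 0 in both.

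In the IDO1 line, differences with indole were small. Of 14 members at 10 CPM, 3 were above 0 (ITGAV, ITGB1 and LAMA5) and 11 below, against 48.8% of all 8523 genes above 0. ITGB5 (0.23) and LAMC3 (0.18), under 10 CPM in this pair, were also above 0. Over the 14 members the median log2 ratio was -0.10, against -0.01 over all genes. None was 2-fold apart, where 0.0821% of all genes were, and none 1.5-fold apart, where 0.716% were. The difference of the log2 ratios, IDO1 line minus wild type, was negative for 15 of 16 members, against 4146 of 8845 genes. Its median was -0.39 for the members and 0.03 over all genes. It was at least 1 in size on the lower side for ITGA2 (-1.25) and LAMB1 (-1.13), against 2.14% of 8845 genes. ITGB5 and LAMC3 reached 10 CPM only in wild type with indole, so the filter favoured a negative difference for them. With 1 library per group the difference between the lines could not be tested.

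In DMF, the lines were close. Of 14 members at 10 CPM, 3 were above 0 in the IDO1 line and 11 below, against 48.4% of all 8500 genes above 0. The members' median was -0.10, and with library totals 7 were above 0 and 7 below. None was 2-fold apart, against 0.447% of all 8500 genes, or 1.5-fold apart, against 2.15%. ITGB4 was 1.28-fold lower in the IDO1 line (1.25 to 1.31), and ITGA2 and LAMB1 had ratios of 0.964 (0.887 to 1.05) and 0.987 (0.907 to 1.07). LAMA3, at a low level, was 4.72-fold higher (2.69 to 8.85).

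In indole, all 16 members had ratios of IDO1 line over wild type below 1, with a median log2 ratio of -0.51, against 0.03 over 8765 genes. The filter again set the direction of ITGB5 and LAMC3, and without them 14 of 14 were below 1, against 45.6% of all genes at 10 CPM in another library. ITGA2 was 2.51-fold lower (2.31 to 2.72), LAMB1 2.25-fold (2.07 to 2.45) and ITGB4 2.14-fold (2.09 to 2.19). They were among 4 members at least 2-fold lower, against 2.22% of all genes. ITGA3 and LAMB3 were among 6 members at least 1.5-fold lower, against 9.75%. This comparison shares the wild type library with indole with the first. When the IDO1 line with indole was instead set against wild type with DMF, 0 of 14 members were 2-fold apart and the median was -0.25.

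**Figure D3:**
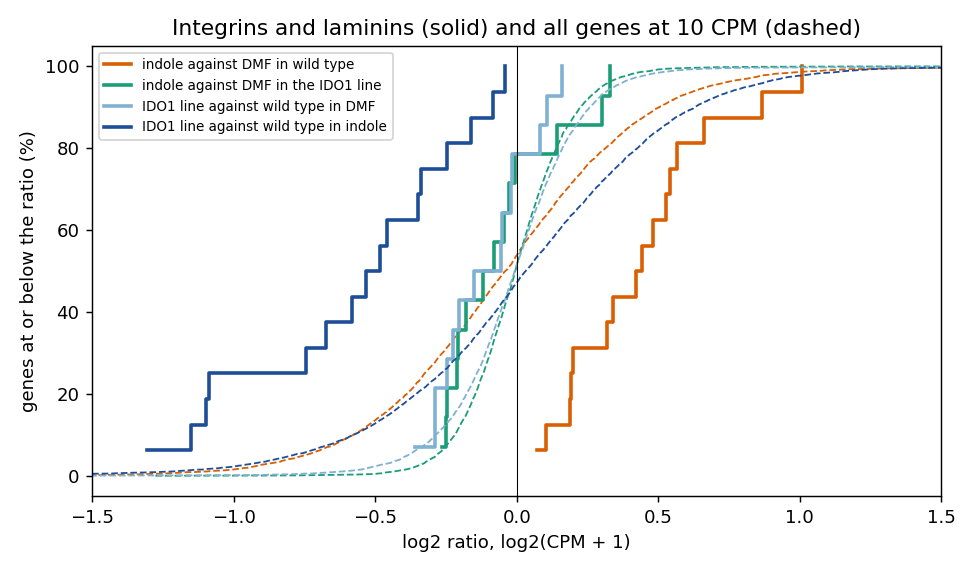
Cumulative share of genes (vertical axis, %) by log2 ratio of CPM plus 1 (horizontal axis) in the 4 pairwise comparisons, for integrins and laminins (solid) and all genes at 10 CPM (dashed). The members lie wholly above 0 for indole in wild type and wholly below 0 for the IDO1 line in indole, and both curves use the wild type library with indole.

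An additive fit of line and treatment over all 4 libraries tested 22 of the 33 members. By edgeR's quasi-likelihood test 0 of the 22 passed for the line, against 2.45% of all 13122 genes. At an unadjusted p under 0.05 there were 5 of 22, against 9.99%. Among these, ITGA2, ITGB4 and LAMB1 were lower in the IDO1 line, with log2 fold changes of -0.70 (SE 0.255), -0.74 (SE 0.274) and -0.60 (SE 0.248), and LAMA3 was higher, with 1.10 (SE 0.471). The adjusted p of the edgeR fit was 0.234 for ITGA2 and 0.253 for ITGB4. DESeq2, run without the low-count filter on all 33 members, also passed 0, against 0.413% of all genes listed. Genes without an adjusted p, such as ITGB2 and LAMB4 with 0 reads, count as not passed in both values. DESeq2 had 5 members at an unadjusted p under 0.05, not the same 5, since its p was 0.123 for LAMA3 and 0.0599 for LAMB1. The share of all genes at that unadjusted level was not counted for DESeq2. For treatment, 0 of 22 passed by edgeR, as did 0.0% of all genes, and 0 of 22 were at an unadjusted p under 0.05, against 3.41%. DESeq2 gave 0 and 0. ITGB1 had the smallest unadjusted p of the members for treatment in edgeR, 0.055, with a log2 fold change of 0.44 (SE 0.218). A 1-factor fit without wild type with DMF set both IDO1 libraries against wild type with indole alone. That library stood apart, and such a fit assumes that a lone library varies like the others. The log2 fold changes for the line were then -1.20 for ITGA2 and -0.998 for ITGB4. With 1 library on a side, members passing are not counted. The additive fit has 1 residual degree of freedom, the difference between the lines in the indole response. Such a difference, -1.25 for ITGA2 and -1.13 for LAMB1 in log2, counts as error, with spread estimated across genes. The labels name no separate cultures, so the p-values of the fit are not a comparison with replicate noise. Spread among these libraries may be technical.

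Of the members, 3 had 0 reads in both libraries of wild type cells and over 3 in both of the IDO1 line, of 31 members with reads, against 1.43% of the 16748 genes with reads. The reverse held for 0 members, against 0.0657%. LAMA1, the embryonic laminin alpha chain, was at 0 reads in wild type under either treatment and at 14 (DMF) and 9 (indole) in the IDO1 line. It was at least 4.35-fold higher in DMF and at least 3.03-fold higher in indole, against a floor of 3 reads per library. Folds given as at least put 3 reads in place of 0, have no counting interval and are not lower limits of confidence. ITGA4, a chain of leukocytes and neural crest cells, was at 0 and 0 reads in wild type, against 7 and 15, and was at least 2.17-fold and 5.06-fold higher. ITGA8, a chain of kidney mesenchyme, had 0 and 0 against 6 and 8, at least 1.86-fold and 2.70-fold higher. None of the 3 passed the filter on low counts of the additive fit. Without a filter their adjusted p-values for the line by edgeR were 0.0505, 0.0635 and 0.249. LAMA2 had 1 read in the IDO1 line with indole and 0 elsewhere, and LAMA4 had 1 to 6 reads. Other low chains did not share this split, such as ITGA11 with 2 and 9 reads in wild type against 1 and 0. These genes were chosen after their values were seen.

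Marker genes of embryonic kidney lines were also higher in the IDO1 line. All 12 genes of that list had reads, their summed level was 13.6 and 12.9 CPM in wild type and 124 and 130 CPM in the IDO1 line, and 6 and 7 of them were at 0 in the wild type libraries against 0 and 0 in the IDO1 line. Their part in the result was not tested. Among the leukocyte chains, ITGB2 had 0 reads in every library, ITGB7 5 to 13 and ITGA9, a related chain, 10 to 21. ITGAM had 25 reads in the IDO1 line with DMF and 5 to 8 in the other 3 libraries, with PTPRC at 0 throughout.

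Some matrix partners of laminin were also higher in the IDO1 line. Of 18 genes of a list of matrix ligands and basement membrane proteins, 17 were tested by edgeR, 5 rose in the IDO1 line and 0 fell, against 267 and 55 of all 13122 genes. These were NID1 and NID2, the nidogens that bridge laminin to collagen IV, the collagen IV chains COL4A1 and COL4A2, and FN1, fibronectin. NID1 was at 0 and 0 reads in wild type, against 134 and 107, and was at least 41.6-fold and 36.1-fold higher (adjusted p 1.92e-08). COL4A2 had 0 and 0 against 95 and 116, COL4A1 2 and 0 against 46 and 33, NID2 0 and 0 against 11 and 26, and FN1 25 and 19 against 95 and 71. For FN1 the log2 fold change was 1.86, with an SE of 0.429 and an edgeR adjusted p of 0.0101. DESeq2 passed 0 of the 5, with adjusted p from 0.0647 to 0.784. The edgeR fit of line alone gave NID2 an adjusted p of 0.0832. Without the IDO1 line with DMF, the edgeR adjusted p was 0.605 for FN1, 0.152 for NID2 and 0.184 for COL4A1, and without the IDO1 line with indole it was 0.321 for FN1 and 0.085 for COL4A1. The summed level of the embryonic kidney markers given above moved with this group too, and its part was not tested.

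**Figure D4:**
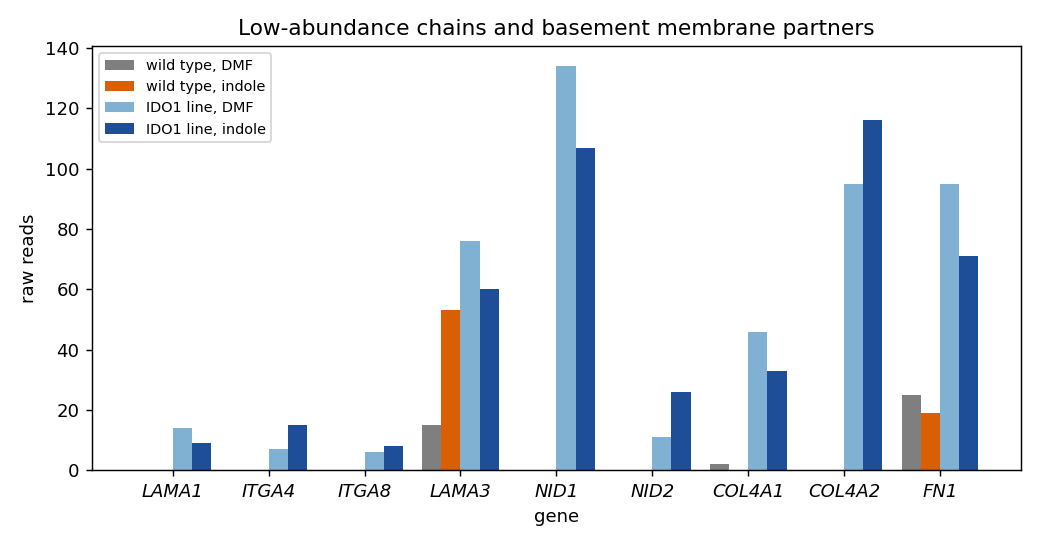
Raw reads (vertical axis) of low-abundance laminin and integrin chains and of basement membrane partners in the 4 libraries. LAMA1, ITGA4, ITGA8, NID1, NID2 and COL4A2 are at 0 in wild type, and LAMA3 is low only in wild type with DMF.

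Genes that act with integrins inside and outside the cell were read from lists. The 23 of 27 adhesome genes at 10 CPM had a median log2 ratio of 0.08 for indole in wild type, with 14 above 0 and 0 at least 2-fold apart. The 5 of 8 hemidesmosome and laminin receptor genes at that level had a median of 0.44, and the 5 of 18 matrix genes one of 0.79, with all 5 above 0. In indole, TNS4, a tensin of focal adhesions, was 2.15-fold lower in the IDO1 line (1.98 to 2.35) and DST, a hemidesmosome plakin, 2.05-fold lower (1.87 to 2.25). BCAM, a receptor for LAMA5, and HSPG2, the basement membrane proteoglycan perlecan, were both 1.96-fold higher with indole in wild type (1.82 to 2.11 for each). In the IDO1 line the indole ratio was 0.947 for BCAM (0.878 to 1.02) and 1.32 for HSPG2 (1.21 to 1.44). BCAM and HSPG2 were chosen after their values were seen. In the additive fit, 0 of 26 adhesome genes and 0 of 6 hemidesmosome genes passed for line or treatment by edgeR. At an unadjusted p under 0.05 there were 2 of each list for the line, against 9.99% of all genes, and 0 for treatment, against 3.41%. Of the 5 integrin chains outside the pattern, ITGA2B had 89 to 100 reads, ITGAE 16 to 48, ITGAX 11 to 38, and ITGAD and ITGAL 0 to 2.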

How the data were processed

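Transcript levels were measured in 4 samples, 1 per group, with the Ion AmpliSeq transcriptome kit, per the labels' protocols. The authors deposited 1 file of raw read counts per sample, with 1 amplicon target per gene and no normalization, per the file headers. The submitters' processing notes name hg19. For the aligner and the read counter, the answer is not given in the sources used here. A design of 2 replicates is described, while a single count column exists per file, so pooling is possible and is not stated. The members and lists were chosen with earlier results of these data known.

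Counts were scaled by TMM in edgeR 4.0.16. Pairwise log2 ratios used CPM plus 1 for genes with at least 10 CPM in either library, called at 2-fold. Folds of single genes have no pseudocount and exact 95% Clopper-Pearson intervals, which compare 2 libraries and cover counting error only, since PCR reads are not independent molecules. The line and treatment effects were tested by quasi-likelihood in edgeR on genes kept by filterByExpr, Benjamini-Hochberg adjusted over all genes at 0.05; SE is the absolute log2 fold change over the root of F. DESeq2 1.42.0 was an alternative. Each amplicon says nothing of other exons or isoforms. Members were named in full at 1.5-fold with 10 CPM, with their partner chains; listed neighbours at 2-fold or past the fit. Promoters came from RefSeq entries, with none for ITGA3, ITGA7, ITGA9, ITGB2, ITGB3, ITGB4, LAMA1 and LAMC3. Not every member counted is reported by name here.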

Additional observations from a re-analysis of the deposited data

Results flagged for a closer look

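For 5 members the indole ratio was above 1 in wild type and below 1 in the IDO1 line, with both counting intervals clear of 1. The difference of the log2 ratios, IDO1 line minus wild type, was -1.25 for ITGA2, -1.13 for LAMB1, -0.74 for ITGB4, -0.54 for ITGA3 and -0.44 for LAMB2. The ratios were 2.03 and 0.840 for ITGA2, 1.84 and 0.830 for LAMB1, 1.44 and 0.865 for ITGB4, 1.34 and 0.921 for ITGA3, and 1.14 and 0.838 for LAMB2. The share of all genes that meet this rule was not counted, so the count of 5 is not read as a trait of the members. Each group had 1 library, so the difference was not tested, and the wild type ratios all use the library that stood apart.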

How the results depend on the processing

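For indole in wild type, the count of members 2-fold apart was 1, and it was 2 with library totals, 0 with median-of-ratios size factors, 0 with a pseudocount of 5 and 2 with a minimum of 1 CPM. For the lines in DMF it was 0, and 1 with a minimum of 1 CPM, where LAMA3 entered. For the lines in indole it was 4, with 3 at a pseudocount of 5 and 3 at a minimum of 50 CPM. That count was 0 with wild type with DMF in place of wild type with indole, an alternative chosen after seeing the data. The difference between the responses had 2 members past the threshold, 3 with library totals and 4 with a minimum of 1 CPM. In the line fit, leaving out 1 library in turn from a 1-factor fit gave 0 to 12 members. The count of 12 came without wild type with DMF, where 32.1% of all genes passed, and 2 members, LAMA3 and ITGB4, passed without wild type with indole, where 3.71% did. In the treatment fit it gave 0 to 1, ITGA2 passing without the IDO1 line with indole, where 0.81% of all genes passed. No called value of a named member changed sign. Single values of the named members moved by more than the reach of their log2 counting interval, from its middle to an end, in 13 cases with library totals. The number was 0 with each other scaling, pseudocount and minimum tried. For differences between the responses, the reaches of the 2 intervals were joined as the root of their summed squares. No paired analysis was possible because each group has 1 library. Depth limits the 10 members under 1 CPM, for which 3 reads are 0.131 to 0.157 CPM.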
